A study of Mus musculus with 20 samples.

Results

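The genes described here set the handling of calcium and the response to vitamin D in the mouse utricle, the vestibular organ that senses gravity through calcium carbonate crystals, the otoconia. They were 10 genes of 25655 in the deposited tables, picked as a list of gene symbols, by a rule that used no measured value, though with earlier results of these data known. They comprised the 4 plasma membrane calcium pumps (*Atp2b1*, *Atp2b2*, *Atp2b3* and *Atp2b4*), the epithelial calcium entry channels *Trpv5* and *Trpv6*, the cytosolic calcium buffers *Calb1* (calbindin-D28k) and *S100g* (calbindin-D9k), the vitamin D receptor *Vdr*, and the sodium-calcium exchanger *Slc8a1*.

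Plasma membrane calcium pumps use ATP to drive calcium out of the cell, and in hair cells of the inner ear the pump made by *Atp2b2* sits in the hair bundle and passes calcium into the endolymph that bathes the otoconia. In the gut and kidney, calcium enters an epithelial cell through *Trpv5* or *Trpv6*, crosses it bound to calbindin, and leaves through a pump or through *Slc8a1*. The receptor encoded by *Vdr*, once bound by active vitamin D, raises the transcription of several of these genes in those organs.

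RNA was measured in the utricles of female C57BL/6J mice in 4 groups of 5 libraries, numbered here by library. The sham + v group (1 to 5) had a sham operation and a vehicle pellet, and the OVX + v group (6 to 10) had both ovaries removed and a vehicle pellet. The OVX + E2 group (11 to 15) was ovariectomized and carried a pellet with 50 µg of estradiol for 60 days, and the OVX + RAL group (16 to 20) was ovariectomized and carried a pellet with 2.4 mg of raloxifene, a selective estrogen receptor modulator, for 60 days. All mice were operated on at 8 weeks of age and the tissue was taken 4 weeks later. Serum estradiol was not measured in the study. No source used here says that each library came from a different animal, so p-values measure the spread between libraries, which may be technical.

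The libraries were made by a 3′ method from 1 ng of total RNA and held 1123053 to 2081747 counted reads. The OVX + E2 libraries were the shallowest, at 1123053 to 1507667 reads against 1435156 to 2081747 in the other 15 libraries. Levels are given as CPM, a gene's reads per 1000000 counted reads of the library. Because a read marks a transcript end, CPM was not divided by gene length, and differences in CPM between genes are not read as differences in their RNA. A gene was taken as detected at 3 reads, which equalled 1.44 to 2.67 CPM depending on the library. No molecular identifiers were used, so this limit covers counting error only. Of the 7 hair cell markers examined, *Pou4f3*, *Otof*, *Myo6* and *Tmc1* were detected in all 20 libraries, *Espn* in 19 and *Myo7a* in 17. *Cdh23* was detected in 5, none of them in OVX + v, where it had 1 read in all. The 7 summed to 745 to 1517 CPM per library, and the 5 genes of the otoconia and otolithic membrane summed to 1273 to 4275 CPM. Most of the latter sum was *Otog*, at a mean of 2508 CPM. *Otog* and *Otol1* were detected in all 20 libraries, *Tectb* in 17, *Otop1* in 10 and *Oc90* in 7. The libraries thus carried RNA of the labelled tissue. Markers of other tissues were present too, reaching 1793 CPM for airway mucosa, 314 for skeletal muscle and 3837 for red blood cells in single libraries.

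Of the 10 genes, 2 were detected in all 20 libraries, *Atp2b1* and *Atp2b2*. *Atp2b4* was detected in 19 libraries and *Vdr* in 14. *Atp2b3* and *Slc8a1* were each detected in 5 libraries. *Trpv6*, *Calb1* and *S100g* were each counted in a single library, and *Trpv5* had no read in any. Among all genes of the tables, 2660 (10.37%) were detected in all 20 libraries and 15803 had at least 1 read.

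**Figure D1:**
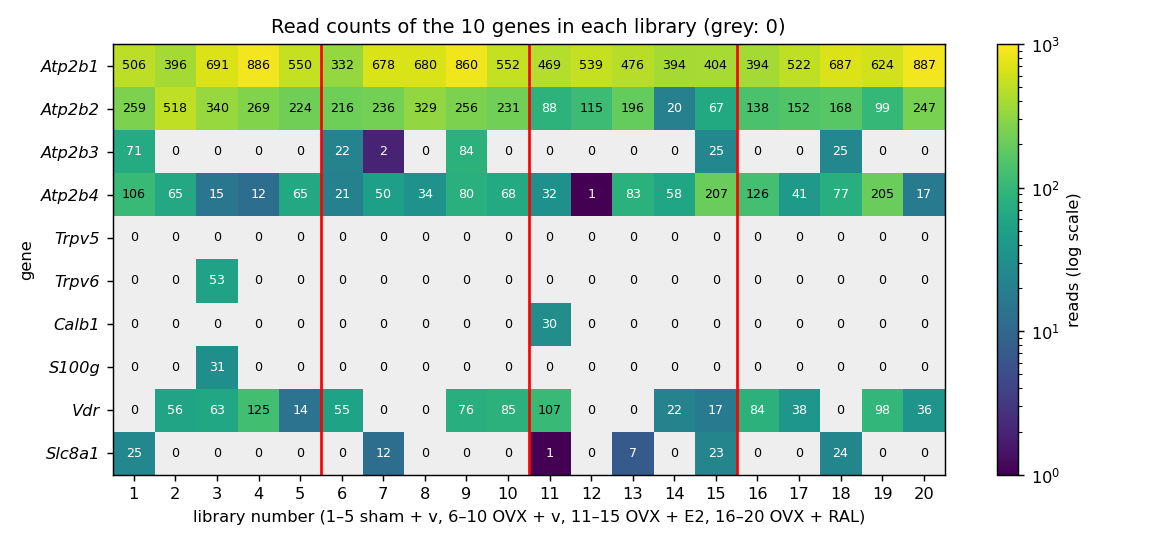
Read counts of the 10 genes (rows) in each of the 20 libraries (columns, red lines between groups), with the count printed in each cell and coloured on a log scale; grey cells are 0. *Atp2b1* and *Atp2b2* have reads in all 20 libraries, and *Trpv6*, *Calb1* and *S100g* each have reads in 1 library.

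The 4 groups were compared to ask whether loss of the ovaries, and replacement with E2 or RAL, moved these genes. No gene of the 10 passed an adjusted p of 0.05 in any comparison (edgeR quasi-likelihood test, Benjamini-Hochberg adjustment over all genes tested). Calls were rare among all genes as well. The share called was 0.0145% for sham + v against OVX + v, where 8 of the 10 genes had enough reads to be tested, and 0.0584% for OVX + E2 against OVX + v, where 7 were tested. It was 0.0286% for OVX + RAL against OVX + v, with 6 of the 10 tested, and 0.0727% for OVX + E2 against OVX + RAL, with 7 tested. Against the sham + v group, which was compared after the values had been seen, it was 0.0222% for OVX + E2 and 0.0648% for OVX + RAL. DESeq2, run on the same reads, also called 0 of the 10 in each of the 6 comparisons. At an unadjusted p under 0.05, edgeR marked 2 of the 10 in sham + v against OVX + v, 1 in OVX + E2 against OVX + v, 0 in OVX + RAL against OVX + v and 1 in OVX + E2 against OVX + RAL. Against sham + v it marked 4 of the 9 tested with E2 and 3 of the 8 tested with RAL, *Atp2b2* among them in both. The marked genes other than *Atp2b2* were *Trpv6*, *S100g* and *Calb1*, each with reads in a single library, through which alone they had enough reads to be tested, so these counts say nothing about the 10 genes as a set. Between 12.1% and 14.2% of all genes tested were below that unadjusted level in the 6 comparisons.

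The gene with the clearest separation between groups was the hair bundle pump *Atp2b2* (ENSMUSG00000030302, chr6:113720792-114019574, minus strand, GRCm39 as given in the files), whose libraries overlapped between the vehicle groups and mostly lay lower with E2 or RAL. Its difference did not pass the test across all genes. The 5 sham + v libraries stood at 126, 272, 202, 150 and 149 CPM, a mean of 180 ± 58.5 (SD, n = 5). The 5 OVX + v libraries stood at 135, 148, 186, 127 and 161 CPM, a mean of 151 ± 23.6. The vehicle groups overlapped, with 2 sham + v libraries above every OVX + v library and 1 below every one.

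With E2, *Atp2b2* stood at 58.4, 86.9, 157, 17.8 and 47.0 CPM, a mean of 73.4 ± 52.9 (SD, n = 5). Of these libraries, 4 lay below every OVX + v library, and replicate 13 lay among the OVX + v libraries. The E2 libraries also held fewer genes with a read, 7427 to 9680 against 10004 to 10694 in OVX + v. Replicate 14, the lowest in *Atp2b2*, had the fewest, and the part of this in the result was not tested. With RAL, the values were 71.0, 81.9, 98.7, 51.9 and 119 CPM, a mean of 84.4 ± 25.6. All 5 RAL libraries were below all 5 OVX + v libraries, and below all 5 sham + v libraries as well. A smaller number of hair cells and less *Atp2b2* RNA in each hair cell cannot be told apart in RNA from whole utricles.

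In edgeR, the log2 fold change of *Atp2b2* in OVX + RAL against OVX + v was -0.84 ± 0.44 (SE), with an adjusted p of 0.459 and an unadjusted p of 0.0588. In OVX + E2 against OVX + v it was -1.04 ± 0.62, with an adjusted p of 0.565 and an unadjusted p of 0.0944. A two-sided exact permutation test of log2(CPM + 1), which took every way to divide the 10 libraries into equal groups and was not adjusted, gave -0.88 and p = 0.00794 for RAL, the smallest p this design can give. For E2 the exact test gave -1.34 and p = 0.0317, which became 0.0714 without OVX + v replicate 8 and 0.0635 without OVX + v replicate 10. On this log2(CPM + 1) scale the median difference of all genes tested was -0.46 with E2 and -0.02 with RAL, each against OVX + v. The tests of *Atp2b2* with E2 and with RAL were the 2 with p under 0.05 among the 28 exact tests of the planned comparisons. *Trpv5*, without reads, was not tested. A further 2 exact tests of *Atp2b2*, added against sham + v, are given below.

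The same gene did not separate the other pairs of groups planned. In sham + v against OVX + v the log2 fold change was 0.25 ± 0.41 (SE; edgeR adjusted p = 0.9998), and the exact permutation p was 0.389. In OVX + E2 against OVX + RAL it was -0.20 ± 0.78 (edgeR adjusted p = 0.99996), and the exact permutation p was 0.452. The spread among the E2 libraries, which ran from 17.8 to 157 CPM, was too wide to say whether E2 and RAL differed. Against sham + v, a comparison added after the values had been seen, the log2 fold change was -1.29 ± 0.63 with E2 (edgeR adjusted p = 0.347, unadjusted 0.0417) and -1.09 ± 0.47 with RAL (edgeR adjusted p = 0.358, unadjusted 0.0221). The exact permutation test of these pairs gave p = 0.0317 with E2, or 0.0635 without sham + v replicate 2, and p = 0.00794 with RAL. The comparisons with the same vehicle group share its libraries.

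Complete separation of 2 groups was uncommon across the tables. It held for 0.578% of genes tested in OVX + RAL against OVX + v, where *Atp2b2* was the 1 gene of the 10 to show it. It held for 0.691% in OVX + RAL against sham + v, again with *Atp2b2* alone among the 10. The share was 0.499% in sham + v against OVX + v, 0.832% in OVX + E2 against OVX + v, 0.909% in OVX + E2 against OVX + RAL and 0.607% in OVX + E2 against sham + v, and none of the 10 genes showed it in these.

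**Figure D2:**
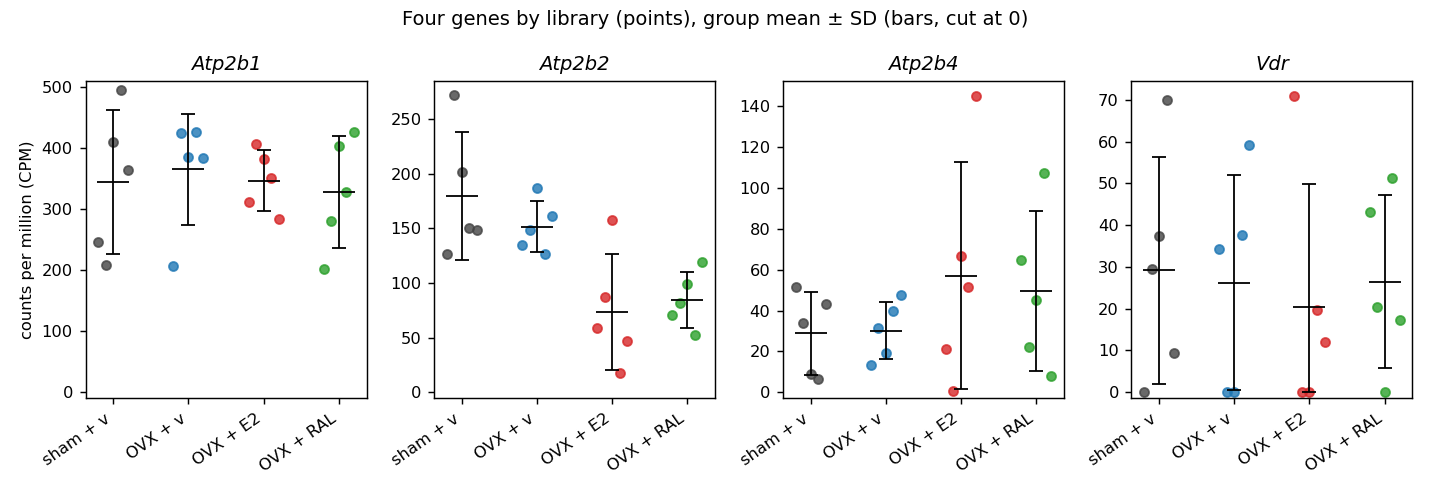
Level in CPM of *Atp2b1*, *Atp2b2*, *Atp2b4* and *Vdr* in each library (points) with the group mean and SD (bars, the lower arm cut at 0), for 4 groups of 5 libraries. For *Atp2b2*, the 5 OVX + RAL libraries lie between 51.9 and 119 CPM, below the lowest OVX + v library at 127 CPM; the groups overlap for the other 3 genes.

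The sum of the 7 hair cell markers did not follow this order. It averaged 1146 CPM in sham + v (745 to 1517), 1042 in OVX + v (760 to 1486), 1123 in OVX + E2 (1060 to 1205) and 1010 in OVX + RAL (772 to 1392), with *Cdh23* near 0 in OVX + v. Single markers differed from the sum. *Myo7a*, *Pou4f3*, *Otof*, *Tmc1* and *Espn* averaged lower in OVX + RAL than in either vehicle group. *Myo6* averaged 364 CPM in sham + v, 362 in OVX + v, 408 in OVX + E2 and 438 in OVX + RAL. In OVX + E2, *Otof* and *Tmc1* averaged lower than in OVX + v and the other markers higher. Taken as a percent of the marker sum, *Atp2b2* was 15.9 ± 2.98 (SD, n = 5) in sham + v and 15.6 ± 5.81 in OVX + v. The percent was 6.58 ± 5.01 in OVX + E2 and 8.53 ± 2.46 in OVX + RAL. Exact permutation tests of the log2 of this ratio, chosen after seeing the data, gave p = 0.0317 for OVX + E2 and p = 0.0317 for OVX + RAL, each against OVX + v. With the ratio the RAL and OVX + v groups no longer separated, since RAL reached 11.1% and OVX + v went down to 9.96%. *Myo6* and *Pou4f3* weigh most in the sum and did not move alike. The ratio therefore cannot tell fewer hair cells from less *Atp2b2* RNA in each, and no conclusion on this is drawn.

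**Figure D3:**
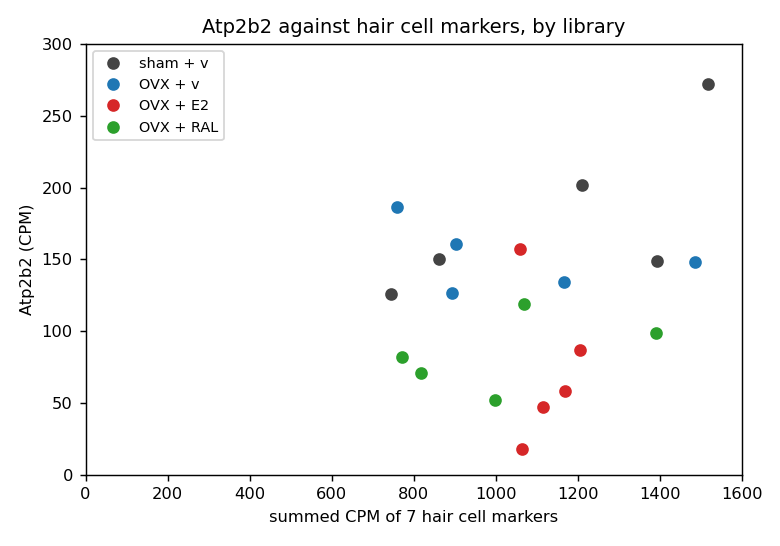
*Atp2b2* in CPM (vertical axis) against the summed CPM of 7 hair cell markers (horizontal axis), 1 point per library and 1 colour per group, with both axes from 0. The OVX + E2 libraries span 1060 to 1205 CPM of hair cell markers and 17.8 to 157 CPM of *Atp2b2*.

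*Atp2b2* is also expressed by neurons, with much of it in the cerebellum. The 4 neuron markers (*Nefl*, *Nefm*, *Snap25* and *Tubb3*) summed to 227 CPM on average in sham + v (209 to 270), 201 in OVX + v (109 to 345), 153 in OVX + E2 (67.7 to 221) and 139 in OVX + RAL (88.1 to 228), and 1 of the 4 was at 0 in every OVX + E2 library. These sums overlapped between groups and were lower on average where *Atp2b2* was lower, and their part in the result was not tested. Of 6 cerebellar markers, *Pcp2*, a defining gene of Purkinje cells, had no read in any of the 20 libraries, *Cbln3* and *Neurod1* had 1 read each and *Gabra6* had 11. The others were *Cbln1*, with 668 reads and detection in 13 libraries, and *Car8*, with 221 reads and detection in 5. The 6 summed to 0 to 73.2 CPM in sham + v, 0 to 77.3 in OVX + v, 0.802 to 111 in OVX + E2 and 0.525 to 38.8 in OVX + RAL, and their part in the result was not tested.

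The 4 pumps are paralogs, so the ends of their messages were compared to see whether a 3′ read could be shared between them. The last 60 coding bases of each, read from GRCm39 with the GENCODE annotation, are shown because they can be lined up base for base and so show how the family members differ; capitals mark the stop codon. They lie at chr10:98858922-98858981 (plus strand) for *Atp2b1*, chr6:113725498-113725557 (minus) for *Atp2b2*, chrX:72614101-72614160 (plus) for *Atp2b3* and chr1:133634429-133634488 (minus) for *Atp2b4*, each within a single exon.
Atp2b1: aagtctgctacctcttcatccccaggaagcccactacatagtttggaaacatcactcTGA
Atp2b2: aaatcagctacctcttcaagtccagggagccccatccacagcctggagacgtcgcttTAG
Atp2b3: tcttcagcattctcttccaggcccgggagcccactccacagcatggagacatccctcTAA
Atp2b4: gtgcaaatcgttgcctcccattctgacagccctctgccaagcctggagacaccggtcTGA

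These coding ends lie 454 to 7234 bases before the ends of the representative transcripts. *Atp2b2* and *Atp2b3* shared 44 of the 60 bases in place, *Atp2b1* and *Atp2b2* shared 42, and *Atp2b1* and *Atp2b3* shared 40. *Atp2b4* stood apart, with 29 to 32 bases shared with each of the others. In the last 400 bases of the representative transcripts, none of 338 windows of 63 bases, the read length left after trimming, was common to any pair of pumps, and the longest shared run was 7 to 10 bases. A read within those 400 bases of *Atp2b2*, *Atp2b3* or *Atp2b4* could therefore be placed on 1 pump. The representative transcript of *Atp2b1* ends at chr10:98862488, beyond the counted gene, which ends at 98862005. Its last 400 bases were thus outside the counted gene, and the comparison does not cover the *Atp2b1* reads that were counted.

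*Atp2b1* (ENSMUSG00000019943, chr10:98750268-98862005, plus strand), the pump found in most cell types, had similar means in the 4 groups. It averaged 345 ± 118 CPM in sham + v, 366 ± 91.1 in OVX + v, 347 ± 50.4 in OVX + E2 and 328 ± 91.2 in OVX + RAL (SD, n = 5 each). Single libraries ran from 203 CPM in OVX + RAL replicate 16 to 495 CPM in sham + v replicate 4. All groups overlapped, and the log2 fold changes of the 4 planned comparisons lay between -0.16 and 0.08, with standard errors of 0.29 to 0.37 (edgeR adjusted p of 0.9997 or more). Within the OVX + v group, replicate 6 stood at 207 CPM against 385 to 426 in the other 4 libraries.

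*Atp2b4* (ENSMUSG00000026463, chr1:133627195-133728779, minus strand), a pump of many tissues that has been studied most in red blood cells and muscle, varied far more between libraries of a group than between groups. Its values were 51.6, 34.1, 8.89, 6.71 and 43.1 CPM in sham + v and 13.1, 31.4, 19.3, 39.6 and 47.4 in OVX + v. They were 21.2, 0.755, 66.5, 51.6 and 145 CPM in OVX + E2 and 64.8, 22.1, 45.2, 108 and 8.17 in OVX + RAL. The means were higher with either pellet, at 57.1 ± 55.5 with E2 and 49.6 ± 39.0 with RAL against 30.1 ± 14.1 in OVX + v (SD, n = 5 each), but each group overlapped every other, and the exact permutation test, on log2(CPM + 1), saw a difference of 0.03 with E2 (p = 0.984) and 0.39 with RAL (p = 0.571). The log2 fold change against OVX + v was 0.92 ± 1.19 (SE) with E2 and 0.72 ± 0.89 with RAL, with edgeR adjusted p of 0.9997 and 0.9999. It was 0.22 without OVX + E2 replicate 15 and 0.22 without OVX + RAL replicate 19, and with E2 it was -0.15 in limma on log2(CPM + 0.1), so no direction is drawn.

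*Atp2b3* (ENSMUSG00000031376, chrX:72546692-72614611, plus strand), a pump known mainly from neurons, was detected in 5 libraries. These held 71 reads in sham + v replicate 1, 22 and 84 reads in OVX + v replicates 6 and 9, and 25 reads each in OVX + E2 replicate 15 and OVX + RAL replicate 18. A further OVX + v library held 2 reads, and the other 14 held none. At least 1 library of each group thus carried the gene and at least 2 carried none, and no comparison passed the test.

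The 4 pumps, added up in each library, summed to 560 ± 78.3 CPM in sham + v, 558 ± 108 in OVX + v, 481 ± 83.1 in OVX + E2 and 465 ± 100 in OVX + RAL (SD, n = 5 each). Of this sum of reads, which is compared between libraries and not between pumps, *Atp2b2* made up 23.1 to 52.9% in sham + v, 20 to 36.5% in OVX + v, 4.24 to 26.0% in OVX + E2 and 10.7 to 21.5% in OVX + RAL. Each of the pellet groups had values inside the range of OVX + v. Across all 20 libraries, Spearman's rho was 0.29 between *Atp2b1* and *Atp2b2*, -0.47 between *Atp2b1* and *Atp2b4*, and -0.36 between *Atp2b2* and *Atp2b4*, as a description over libraries that share their depth as denominator.

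**Figure D4:**
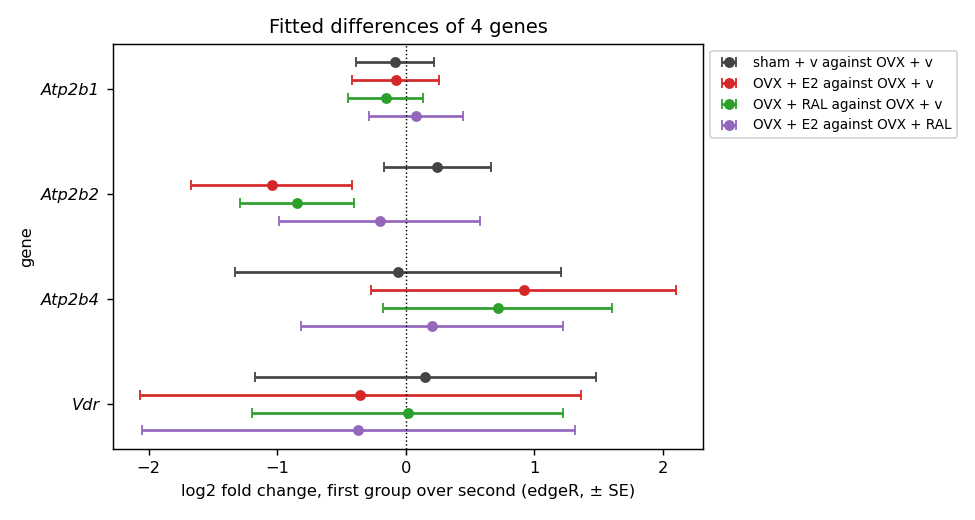
Log2 fold changes (horizontal axis, first group over second, edgeR) with their standard errors for *Atp2b1*, *Atp2b2*, *Atp2b4* and *Vdr* in the 4 planned comparisons, 1 colour each. *Atp2b2* lies at -1.04 and -0.84 for E2 and RAL against OVX + v, *Atp2b1* stays between -0.16 and 0.08, and *Atp2b4* and *Vdr* have standard errors of 0.89 to 1.72.

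*Vdr* (ENSMUSG00000022479, chr15:97752306-97808511, minus strand) was detected in 4 of 5 libraries in sham + v and OVX + RAL, and in 3 of 5 in each of OVX + v and OVX + E2. The values were 0, 29.4, 37.3, 69.9 and 9.29 CPM in sham + v and 34.3, 0, 0, 37.6 and 59.2 in OVX + v. They were 71.0, 0, 0, 19.6 and 11.9 CPM in OVX + E2 and 43.2, 20.5, 0, 51.4 and 17.3 in OVX + RAL. Every group held at least 1 library without a read and at least 1 above 50 CPM.

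The mean level of *Vdr* was 29.2 ± 27.3 CPM in sham + v and 26.2 ± 25.8 in OVX + v (SD, n = 5 each), and 20.5 ± 29.4 with E2 and 26.5 ± 20.8 with RAL. The log2 fold changes of the planned comparisons ran from -0.37 to 0.15 with standard errors of 1.21 to 1.72 (edgeR adjusted p of 0.9997 or more), so a difference of several-fold in either direction was not detectable in these libraries. A pattern of absence in some libraries is common at this level. Among the 1632 genes within 20% of the mean level of *Vdr*, the median gene was detected in 15 libraries, against 14 for *Vdr*.

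The entry channels gave almost no reads. *Trpv5* (ENSMUSG00000036899, chr6:41629107-41657703, minus strand) had 0 reads in all 20 libraries, which by counting error alone allows up to 1.44 to 2.67 CPM in a library. The true limit may be higher, since *Vdr* had 0 reads in 6 libraries and reached 71.0 CPM in another. *Trpv6* (ENSMUSG00000029868, chr6:41597558-41613339, minus strand), its neighbour on the chromosome, had 53 reads in sham + v replicate 3 (31.4 CPM) and 0 in the other 19 libraries. The ends of the pair shared no window of 63 bases, with a longest run of 8.

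The calbindins of the 10 genes were as sparse. *S100g* (ENSMUSG00000040808, chrX:161744988-161747595, minus strand) had 31 reads in sham + v replicate 3 (18.4 CPM), the same library as *Trpv6*, and none elsewhere. *Calb1* (ENSMUSG00000028222, chr4:15881264-15908064, plus strand) had 30 reads in OVX + E2 replicate 11 (19.9 CPM) and none elsewhere. Counts confined to 1 library were ordinary in these data, since 390 genes had at least 30 reads in 1 library and 0 in the other 19. Each library held 8 to 33 such genes, with 23 in sham + v replicate 3 and 33 in OVX + E2 replicate 11.

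The count model gave these single libraries small unadjusted p-values. For sham + v against OVX + v, edgeR gave an unadjusted p of 0.0406 for *Trpv6* and 0.0418 for *S100g*, with adjusted p of 0.363 for both. For OVX + E2 against OVX + v it gave 0.0382 for *Calb1*, with an adjusted p of 0.351. The exact permutation test gave p = 1 for each of the 3 genes, as 1 library of 5 was above 0 in a group and none was in the other. No fold change is given for them.

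*Trpv6* and *S100g* are classical targets of vitamin D, and *S100g* of estrogen, in other organs, so the starts of the genes were searched for the binding motifs of both receptors. The RefSeq promoter table (GRCm38.p6, 250 bases before to 50 after a start) held 11 windows for 8 of the 10 genes, *Atp2b3* and *Calb1* not among them. The inverted motif GGTCANNNTGACC, on either strand, occurred in none of the 11 windows and in 0.07001% of 32851 windows of all genes. The direct motif GGTCANNNNGGTCA occurred in none of the 11 and in 0.04566% of all. At such shares 11 windows are too few to expect either motif, so the absence is not read as a result. The short motif AGGTCA, most of which recurs in both longer motifs, occurred in 2 of the 11 windows and in 16.26% of all. With so few windows this is near the share of all windows and is not read as a trait of these genes.

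The windows with a short motif were those of *Trpv6* and *S100g*, each with 2 of them, which are shown because they are the matches found in the 11 windows. The 4 stretches lie at chr6:41636579-41636608, chr6:41636553-41636582, chrX:162964802-162964831 and chrX:162964689-162964718 (GRCm38.p6, minus strand, a different build from the gene positions above). Each is written along the gene, with the short motif or its complement in capitals and its distance in bases from the start of transcription in the name.
Trpv6 at -191: ctgcaatgagccTGACCTgtcccagccttc
Trpv6 at -165: cttcctagaaaaAGGTCActgggtatccca
S100g at -220: gggctgtgcgcaAGGTCAaaattctatact
S100g at -107: tctattgaagctTGACCTtaattgagagtc

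*Slc8a1* (ENSMUSG00000054640, chr17:81680534-82045806, minus strand), the exchanger that trades calcium for sodium and is best known from heart muscle, was detected in 5 libraries. The counts were 25 reads in sham + v replicate 1, 12 in OVX + v replicate 7, 7 and 23 in OVX + E2 replicates 13 and 15, and 24 in OVX + RAL replicate 18. OVX + E2 replicate 11 held 1 read and the other 14 libraries none. All 4 groups included libraries with and without it, and the edgeR adjusted p was 0.9997 or more in each planned comparison. *Slc8a1* and *Atp2b3* were detected together in 3 libraries, sham + v replicate 1, OVX + E2 replicate 15 and OVX + RAL replicate 18, of the 5 that each had.

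Sparse detection was shared by other genes of like level in these tables. Genes within 20% of the mean level of *Atp2b3* were detected in a median of 6 libraries, and those near *Trpv6*, *Calb1* and *S100g* in a median of 2, 1 and 1. Genes near the level of *Atp2b4* were detected in a median of 18 libraries. *Slc8a1* was detected more widely than most genes of its level, in 5 libraries against a median of 3.

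The wider calcium and vitamin D pathway was represented by 53 further genes listed by function, of which 10 were detected in all 20 libraries and 24 in 15 or more. None passed an adjusted p of 0.05 in any of the 6 comparisons (edgeR). In the 4 planned comparisons 42 to 44 of the 53 had enough reads for the test. The median log2 fold change of those tested was -0.17 in sham + v against OVX + v (16 higher, 26 lower), beside -0.02 for all genes tested. It was -0.16 in OVX + E2 against OVX + v (19 higher, 25 lower; all genes -0.06), 0.04 in OVX + RAL against OVX + v (24 higher, 19 lower; all genes -0.03) and -0.21 in OVX + E2 against OVX + RAL (17 higher, 26 lower; all genes -0.01).

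Several roles in that pathway were well covered. *Atp2a2*, the pump that loads calcium into the endoplasmic reticulum, averaged 243 ± 80.3 CPM over the 20 libraries (SD) and was detected in all of them. So were *Nptn* (161 ± 59.6 CPM) and *Bsg* (287 ± 82.5 CPM), membrane partners that the plasma membrane pumps need to reach the cell surface.

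*Itpr1*, a release channel of the endoplasmic reticulum, and *Stim2*, its calcium sensor, averaged 219 ± 71.4 and 162 ± 65.3 CPM and were detected in all 20 libraries. Among exchangers, *Slc8a2* was detected in 19 libraries (80.4 ± 53.1 CPM), against 5 for *Slc8a1*. *Slc24a3* was detected in 16, and *Slc24a1* and *Slc24a4* had no read. The Golgi pump *Atp2c1* was detected in 12 libraries.

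Other cytosolic calcium-binding proteins were well detected, since all 6 genes listed for this role were detected in 15 or more libraries and 3 of them in all 20. Of these, *Calb2* (calretinin), *Pvalb* (parvalbumin) and *Ocm* (oncomodulin) are named after their values were seen. *Calb2* was detected in 18 libraries, at 36.2 to 136 CPM in sham + v, 24.9 to 50.9 in OVX + v, 0 to 165 in OVX + E2 and 31.5 to 242 in OVX + RAL, with medians of 118, 30.2, 47.3 and 53.5. *Pvalb* was detected in 18 libraries, with medians of 49.8, 67.4, 33.7 and 78.7 CPM in the same order of groups. *Ocm* was detected in 16 libraries, at 14.54 to 71.9 CPM in sham + v, 0 to 86.0 in OVX + v, 0 to 28.8 in OVX + E2 and 0 to 23.5 in OVX + RAL, with medians of 26.5, 41.1, 4.45 and 9.44. All 3 genes overlapped between OVX + v and each of the other groups, and none passed the edgeR test in any comparison.

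The vitamin D system beyond its receptor was uneven. *Lrp2*, the endocytic receptor that takes up vitamin D bound to its carrier protein, averaged 232 ± 110 CPM and *Pdia3*, a protein disulfide isomerase of the endoplasmic reticulum, 352 ± 105 CPM, both in all 20 libraries. *Cyp24a1*, the enzyme that breaks down active vitamin D and a classical *Vdr* target, had no read in any library, and *Cyp27b1*, the enzyme that makes active vitamin D, had 1 read in all. The carrier gene *Gc* had none, nor had *Casr* and *Calcr*, the receptors for calcium and calcitonin, or *Stc2*. The parathyroid hormone receptor gene *Pth1r* was detected in 12 libraries and *Kl* in 5.

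For the 3 genes detected in 15 or more libraries, the genes with the most similar ranking of CPM over the 20 libraries were drawn from 9027 genes with a mean of at least 20 reads per library. *Atp2b1* ranked most like *Smim7* (Spearman's rho 0.76), *Rps26* (0.71) and *Gorasp1* (0.68). *Atp2b2* ranked most like *Prob1* (0.78), *mt-Atp8* (0.74) and *Per1* (0.71). *Atp2b4* ranked most like *Eml2* (0.80), *Wdr61* (0.71) and *Ap1s2* (0.70). These are the highest of 9027 values in each case and are given as a description of the libraries.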

How the data were processed

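The authors sequenced 3′ libraries (75 cycles), trimmed the first 12 bases, removed reads under 20 bases and counted reads per gene of GRCm39 in CLC Genomics Workbench with default settings. How reads with several matches were handled is not given in the sources used here. The deposited total counts, whole numbers per gene and library, were used. The authors' normalized columns and their comparison columns (fold changes, p-values and adjusted p-values) were not. All 10 repeated OVX + v columns were identical to their first copy, and no 2 libraries of a group held identical counts.

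CPM was computed from column totals (1123053 to 2081747 reads). Each comparison was fitted in edgeR 4.0.16 (R 4.3.3) on its own 10 libraries, with genes of at least 10 reads, total counts as library sizes and Benjamini-Hochberg adjustment over all genes tested. Alternatives used TMM factors, DESeq2 1.42.0, limma 3.58.1 on log2(CPM + 1) and log2(CPM + 0.1), no filter, filterByExpr, robust fitting, 1 fit of all 20 libraries, and each library left out. Single genes were also tested by exact permutation. The fitting steps were tested on simulated data.

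The genes and lists were chosen with earlier results of these data known. All 10 genes are named. Of the 53 listed pathway genes, the 2 of highest mean CPM in each list and those with at most 2 reads are named, except in the list of buffers, where 1 result is not reported here and 3 genes were named after their values were seen. The 3 genes of highest Spearman's rho are named as most alike. The comparisons with sham + v and the ratio to hair cell markers were added after seeing the data. The 16 marker lists were otherwise used to check the tissue. Not used in a result were the marker sums of Schwann cells, choroid plexus, fibrocytes, fibroblasts, endothelium, macrophages, muscle and blood. Nor were those of bone, melanocytes, dark cells and airway mucosa. Some of these differed in mean, with overlap. Choroid plexus markers averaged 459 CPM in OVX + v, 132 in OVX + E2 and 285 in OVX + RAL. Schwann cell markers averaged 2286, 3272 and 1925 in the same order. Their part in the *Atp2b2* result was not tested.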

Additional observations from a re-analysis of the deposited data

Results flagged for a closer look

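Within 27 groups of 5 libraries tested for a library far from the other 4 (Dixon's criterion), 11 had one, where chance gives about 1.35. In 9 of these the other 4 libraries were at 0, so that any read made the library distant. *Atp2b3* stood at 34.6 CPM in sham + v replicate 1, at 17.5 CPM in OVX + E2 replicate 15 and at 14.7 CPM in OVX + RAL replicate 18. *Slc8a1* stood at 12.2 CPM in sham + v replicate 1, at 7.53 CPM in OVX + v replicate 7 and at 14.1 CPM in OVX + RAL replicate 18. *Trpv6* (31.4 CPM) and *S100g* (18.4 CPM) were counted in sham + v replicate 3, and *Calb1* (19.9 CPM) in OVX + E2 replicate 11. The remaining pair were *Atp2b1* at 207 CPM in OVX + v replicate 6, far below the other 4 libraries of its group, and *Vdr* at 71.0 CPM in OVX + E2 replicate 11, above the other 4. The causes were not tested.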

How the results depend on the processing

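No gene of the 10 was called under any alternative run, and *Atp2b2* stayed lower with E2 and with RAL than in OVX + v throughout. Its edgeR log2 fold change ran from -1.52 to -0.79 with E2 and from -0.996 to -0.71 with RAL, with adjusted p of 0.411 or more. In the exact permutation test, leaving out single libraries gave -1.70 to -0.93 for OVX + E2 against OVX + v, with p up to 0.0714 (without OVX + v replicate 8), and -1.90 to -1.13 for OVX + E2 against sham + v, with p up to 0.0635 (without sham + v replicate 2). For OVX + RAL, p stayed at or below 0.0159 against either group. TMM factors moved the median of all genes in OVX + E2 against OVX + v from -0.06 to -0.17, and that of OVX + E2 against OVX + RAL from -0.01 to -0.16. No paired analysis was possible because no 2 groups share library numbers. Little can be said of the genes counted in 1 library or none, *Trpv5*, *Trpv6*, *Calb1* and *S100g*, and why reads were confined to 1 library was not tested.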
